A study of Mus musculus with 7 samples.

Results

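The genes described are netrin-4 (Ntn4), the laminin chains Lama2, Lama4, Lama5, Lamb1, Lamb2 and Lamc1, the nidogens Nid1 and Nid2, and perlecan (Hspg2), which together make 10 of the 56748 gene identifiers counted. They were chosen by name as noncollagen genes of the basement membrane, with the difference between the genotypes already known, in which Ntn4 was among the clearest rises. Their genotype differences are therefore given as a description without a test. Tests are given for the order of their levels within libraries and for the lists of related genes. The order was set from the same libraries. The lists too were chosen with earlier results of these data known, so their p-values are not free of that knowledge.

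RNA was measured in muscle stem cells (MuSCs) from hind limb muscles of adult mice, 3 WT libraries and 4 libraries from mice homozygous for Jag2sm, a hypomorphic allele of the NOTCH ligand gene Jag2 that the labels' genotype field writes as Jag2-/-. No age beyond adult, no sex and no strain of the WT mice was given for these libraries in the sources used here. In both genotypes the cells had been depleted of CD31, CD45 and Sca1 positive cells and enriched for Integrin α7 on magnetic columns. The labels' growth protocol has them kept on collagen-coated plates in growth medium with serum and bFGF, and the time in culture before RNA extraction was not given. The mutant allele was carried by every cell of the animal, and nothing says whether the libraries of a genotype came from separate animals or cultures, so that p-values measure only the spread between these samples.

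Depth ran from 187834 to 1937581 reads on genes. WT replicate 1 was the shallowest, and 45.1% of its aligned reads fell on no gene, against 20.8% to 25.7% elsewhere. The share of reads left unaligned was 46.0% to 50.8% in Jag2sm replicates 1, 2 and 4 but 3.07% in Jag2sm replicate 3 and 2.44% to 3.24% in WT. The allele changes an amino acid, so the level of Jag2 itself, 80.7, 114 and 116 CPM in WT and 42.4, 78.8, 71.9 and 77.4 CPM in Jag2sm, does not check the labels (log2 fold change −0.64 ± 0.243 (SE), edgeR adjusted p = 0.166). CPM is a count scaled to a library size common to all libraries by the TMM method. Of the muscle markers, Myod1 stood at 615 to 830 CPM and Pax7 at 28.8 to 172 CPM, while the endothelial genes Kdr and Tie1, the leukocyte genes Ptprc, Adgre1 and Cd3e and the fibroblast genes Lum and Dpt had no read in any library. Other fibroblast markers had reads, among them Col3a1 at 34.6 to 348 CPM, Col1a1 at 2.76 to 58.8 CPM and Cd34 at 0 to 28.5 CPM. Other endothelial and leukocyte markers had few reads. Pecam1 had 2 in WT and 16 in Jag2sm libraries, with every Jag2sm library above every WT library. Egfl7 had 11 and 21, Tek 6 and 9, Cd68 5 and 11, and Itgam 6 and 0. Nothing here separates fewer cells of a type from less RNA per cell.

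The basement membrane is the thin sheet of matrix that wraps each muscle fiber, and the muscle stem cell lies between it and the fiber. Laminins are crosses of an α, a β and a γ chain that join into a network bound to the cell surface through integrins and dystroglycan. Nidogens link this network to collagen IV, perlecan is a large heparan sulfate proteoglycan that ties it to growth factors and other partners, and netrin-4 is a laminin-related protein that binds the laminin γ1 chain and can interrupt the network. Loss of the laminin α2 chain causes a congenital muscular dystrophy.

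Ntn4, Lamb1 and Nid1 were the genes of this group whose level was above every WT library in every Jag2sm library. The 250 bases before their annotated starts are shown because these 3 genes lay on the same side of WT. Sequences are from RefSeq on GRCm38.p6, in which 7 of the 10 genes were matched, and Lama4, Lamc1 and Nid2 were not. The windows are chr10:93640799-93641048 for Ntn4, chr12:31265043-31265292 for Lamb1 and chr13:13437352-13437601 for Nid1, all on the + strand. Capitals mark TGGGAA, the core letters bound by RBPJ, the DNA-binding partner of NOTCH, searched on both strands from 250 bases before to 50 after the start.
Ntn4: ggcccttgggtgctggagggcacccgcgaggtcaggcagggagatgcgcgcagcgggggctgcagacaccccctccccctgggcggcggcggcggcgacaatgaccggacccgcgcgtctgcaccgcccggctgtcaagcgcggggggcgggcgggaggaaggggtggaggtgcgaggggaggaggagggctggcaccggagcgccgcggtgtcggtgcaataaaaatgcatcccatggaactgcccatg
Lamb1: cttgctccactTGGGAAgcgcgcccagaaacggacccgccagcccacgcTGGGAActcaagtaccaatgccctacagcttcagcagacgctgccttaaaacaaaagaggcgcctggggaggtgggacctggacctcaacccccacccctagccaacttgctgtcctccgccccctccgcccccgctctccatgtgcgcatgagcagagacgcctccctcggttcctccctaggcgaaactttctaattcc
Nid1: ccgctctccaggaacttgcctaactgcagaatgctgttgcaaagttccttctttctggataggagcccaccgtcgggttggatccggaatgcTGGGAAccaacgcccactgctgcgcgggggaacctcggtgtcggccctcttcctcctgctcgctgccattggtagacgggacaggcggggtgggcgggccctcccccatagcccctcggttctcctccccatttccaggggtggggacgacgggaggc
The letters TGGGAA began 239 and 201 bases before the start of Lamb1, 158 bases before that of Nid1, and 38 bases after that of Ntn4, beyond the stretch printed. They also began 33 bases before the start of Hspg2 and 21 before that of Lama2, which makes 5 of the 7 matched genes, and 25.6% of 32851 RefSeq windows of this length held them. The E-box CAGCTG, which MYOD can bind, was in 0 of the 7 windows and in 16.3% of all. These are matches of letters only.

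Across all 9489 genes tested, 6.26% were called at an adjusted p under 0.05 (quasi-likelihood test of edgeR, adjusted by Benjamini-Hochberg), 1.42% higher and 4.84% lower in Jag2sm. Of the 10 genes, 9 had enough reads to be tested, 2 were called higher (Ntn4 and Nid1) and 1 lower (Nid2). Every Jag2sm library lay above every WT library for 3 of them, where 10.3% of all tested genes did so, and below for 1 (Nid2), against 12.2% of all. Nothing is read from these counts, because the genotype comparison was used to choose the genes. The median log2 fold change of the 9 was −0.08, beside 0.05 over all tested genes. Nid1 and Nid2 were just inside the threshold of a call and Lamb1 just outside it.

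**Figure D1:**
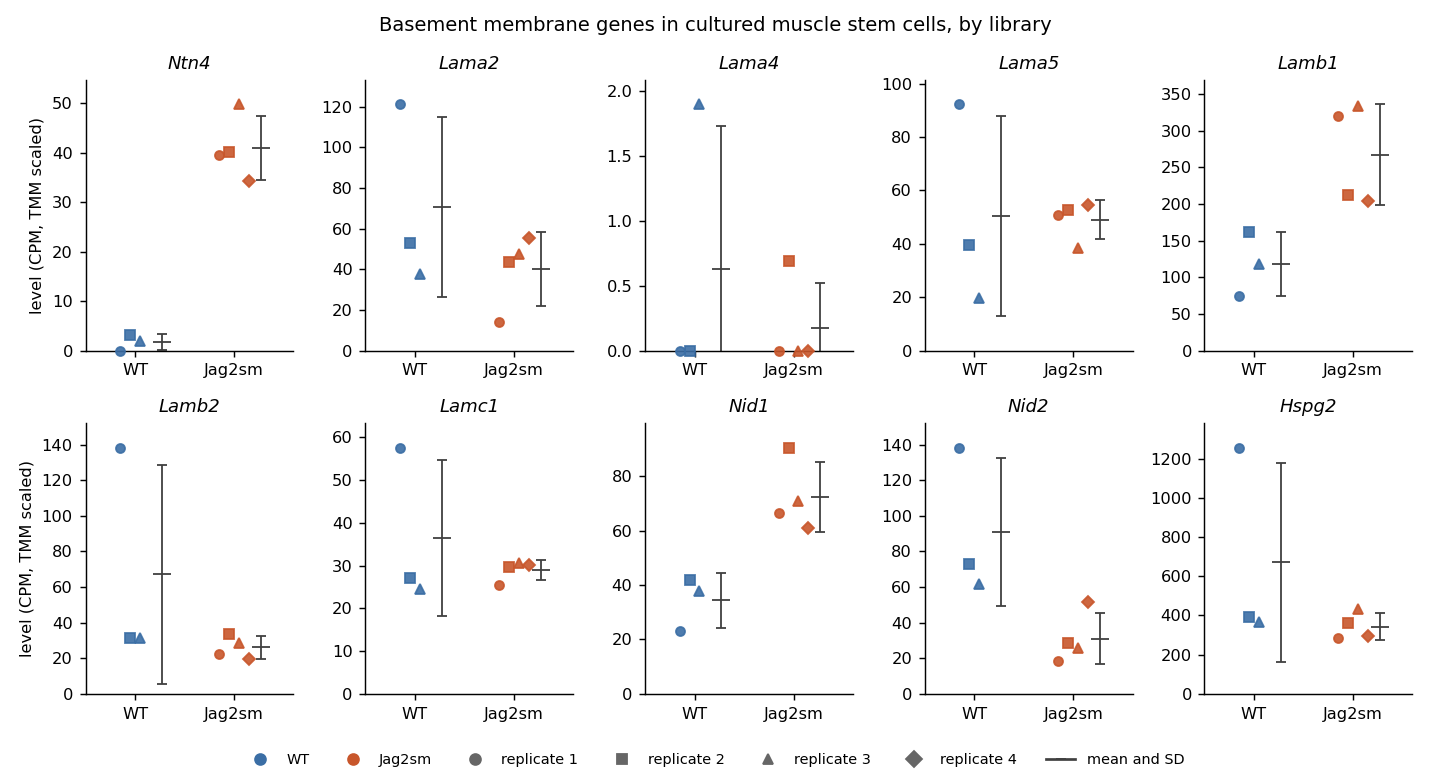
Level of each of the 10 genes (CPM, linear axis from 0) in the 3 WT and 4 Jag2sm libraries, with marker shape for the replicate and a bar for mean and SD. Ntn4, Lamb1 and Nid1 separate upward and Nid2 downward, and WT replicate 1 stands highest for 6 genes, Lama2, Lama5, Lamb2, Lamc1, Nid2 and Hspg2.

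Ntn4 (ENSMUSG00000020019.5; GRCm39 chr10:93476543-93583069, + strand; 10 exons in its canonical transcript) had 0, 3.23 and 1.90 CPM in WT replicates 1 to 3 and 39.6, 40.1, 49.8 and 34.2 CPM in Jag2sm replicates 1 to 4. It was close to silent in WT cells and read in every Jag2sm library, with no overlap between the genotypes. This rests on 7 WT reads against 229 in Jag2sm, a depth-scaled ratio of 16.8 with an exact 95% interval of 8.01 to 42.2 that covers counting error only. The fitted log2 fold change was 4.00 ± 0.396 (SE worked back from the edgeR F statistic). DESeq2 gave 4.09 ± 0.667 (SE), so the smaller error is not a measure of precision to rely on. In WT replicate 1 the count of 0 allows up to 17.3 CPM, taken as 3 counts, which is still below the lowest Jag2sm value.

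Within the labels' batches 1, 2 and 3, each of which holds 1 WT and 1 Jag2sm library, the log2 difference of Ntn4 was 4.59, 3.08 and 3.84. Without WT replicate 1 the fitted value was 3.89, and without Jag2sm replicate 3 it was 3.87. The Ntn4 level of Jag2sm replicate 3 was the highest of the 4. That library resembled WT in its share of unaligned reads. The same library had the lowest summed level of 8 interferon-stimulated genes among Jag2sm libraries, 38.4 CPM, where the other 3 had 451 to 2314 CPM and WT 0 to 17.5 CPM. Of those 8 genes, 7 were tested and 4 called higher, where 1.42% of all tested genes were called higher. The part of unaligned reads or of the interferon-stimulated state in the Ntn4 level was not tested. A pair of lncRNA genes, Gm15915 and Gm67787, overlap exons of Ntn4 on the opposite strand, and the former had 7 reads in all libraries together.

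Among the laminin β chains, Lamb1, the β1 chain found in most laminins (ENSMUSG00000002900.18; chr12:31315030-31379658, + strand; 33 exons), had 74.9, 162 and 118 CPM in WT and 320, 212, 333 and 205 CPM in Jag2sm libraries. The genotypes did not overlap. The log2 fold change was 1.11 ± 0.295 (SE), and the differences within batches were 2.07, 0.39 and 1.49. The gene was not called. Its exons share 303 bases with Dld on the opposite strand, a gene with 1085 reads in these libraries, and counting by strand was not stated, so part of the count is uncertain.

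Lamb2, the β2 chain enriched at the neuromuscular junction (ENSMUSG00000052911.10; chr9:108356935-108367729, + strand; 33 exons), had 138, 31.7 and 31.3 CPM in WT and 22.6, 33.9, 28.6 and 19.6 CPM in Jag2sm libraries. WT replicate 1 stood alone and the other 2 WT libraries lay within the Jag2sm range. The log2 fold change of −0.95 ± 0.490 (SE) became −0.26 without WT replicate 1.

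As a share of the reads of both β chains, Lamb1 made up 35.1%, 83.6% and 79.0% in WT and 93.4%, 86.2%, 92.1% and 91.3% in Jag2sm libraries. All Jag2sm shares lay above all WT shares. The closest shares were those of the second replicates. The exact 95% intervals of that pair, 78.9% to 87.6% for WT replicate 2 and 82.2% to 89.6% for Jag2sm replicate 2, overlapped.

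Of the α chains, Lama2, which is the main α chain of the muscle fiber's basement membrane (ENSMUSG00000019899.18; chr10:26856032-27495754, − strand; 65 exons), had 121, 53.0 and 37.9 CPM in WT and 14.1, 43.5, 47.3 and 55.4 CPM in Jag2sm libraries. The genotypes overlapped, with the highest value in WT replicate 1 and the lowest in Jag2sm replicate 1, both from batch 1. The log2 fold change was −0.53 ± 0.445 (SE), and −0.16 without WT replicate 1. The within-batch differences were −2.95, −0.27 and 0.31, so the sign was not shared.

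Lama5, the widespread α5 chain (ENSMUSG00000015647.10; chr2:179818166-179867712, − strand; 79 exons), had 92.2, 39.4 and 19.9 CPM in WT and 50.9, 52.5, 38.4 and 54.6 CPM in Jag2sm libraries. The Jag2sm values were all within the WT range, with a log2 fold change of 0.28 ± 0.398 (SE), which was 0.67 without WT replicate 1 and −0.21 without WT replicate 3. Lama4, the α4 chain typical of vessels (ENSMUSG00000019846.12; chr10:38841141-38998403, + strand; 38 exons), was too low to test. It had 2 reads in WT replicate 3, 1 in Jag2sm replicate 2 and none in the other 5 libraries, a depth-scaled ratio of 0.256 with an exact 95% interval of 0.00435 to 4.93.

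Among the reads of the 3 α chains, Lama5 made up 43.2%, 42.7% and 33.3% in WT and 78.3%, 54.3%, 44.8% and 49.6% in Jag2sm libraries. The shares did not overlap, but the closest pair, WT replicate 1 and Jag2sm replicate 3, had intervals of 27.1% to 60.5% and 37.3% to 52.5%. The γ chain was nearly level. Lamc1, the γ1 chain that carries the nidogen binding site (ENSMUSG00000026478.15; chr1:153094597-153208774, − strand; 28 exons), had 57.6, 27.1 and 24.7 CPM in WT and 25.5, 29.7, 30.6 and 30.2 CPM in Jag2sm libraries. Apart from WT replicate 1, all libraries lay within a narrow band, and the log2 fold change was −0.08 ± 0.296 (SE).

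**Figure D2:**
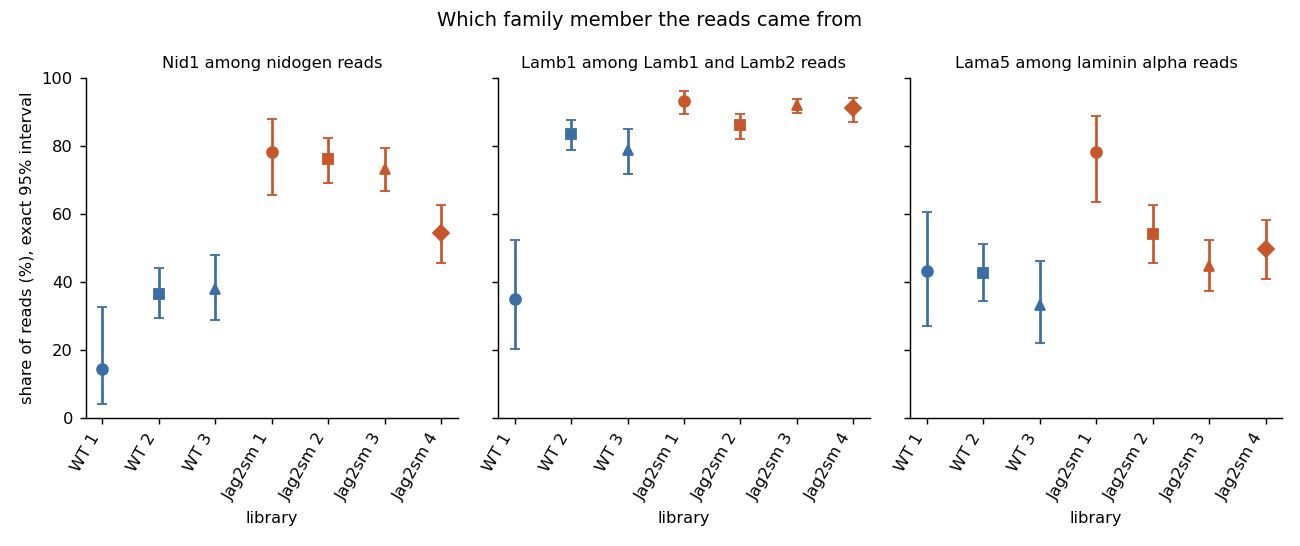
Share of reads (percent, linear axis) taken by Nid1 among the nidogens, Lamb1 among Lamb1 and Lamb2, and Lama5 among Lama2, Lama4 and Lama5, in each library, with exact 95% intervals that cover counting error only. Nid1 runs from 14.3% to 38.1% in WT and from 54.3% to 78.3% in Jag2sm libraries.

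The 2 nidogens lay on opposite sides. Nid1 (ENSMUSG00000005397.9; chr13:13612071-13686860, + strand; 20 exons), the classical laminin and collagen IV linker, had 23.1, 42.0 and 37.9 CPM in WT and 66.5, 90.5, 71.0 and 61.1 CPM in Jag2sm libraries. The genotypes did not overlap, with a log2 fold change of 0.95 ± 0.241 (SE). Differences within batches were 1.46, 1.08 and 0.87. The call was not kept with the replicate number as a block, where the log2 fold change was 1.09.

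Nid2 (ENSMUSG00000021806.5; chr14:19801298-19861855, + strand; 21 exons), the second nidogen, with a similar binding range, had 138, 73.0 and 61.6 CPM in WT and 18.4, 28.3, 25.6 and 51.4 CPM in Jag2sm libraries. The Jag2sm values were all below the WT values. The fitted difference was −1.39 ± 0.365 (SE), −1.12 without WT replicate 1, and the within-batch differences were −2.80, −1.32 and −1.21. Exons of Nid2 share 767 bases with Rtraf on the opposite strand, which had 839 reads, so that reads of the pair could not be told apart with certainty.

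Nid1 accordingly gave 14.3%, 36.5% and 38.1% of nidogen reads in WT and 78.3%, 76.2%, 73.5% and 54.3% in Jag2sm libraries. The most read nidogen was Nid2 in all 3 WT libraries and Nid1 in all 4 Jag2sm libraries. The intervals of the closest pair, 28.8% to 48.1% in WT replicate 3 and 45.7% to 62.8% in Jag2sm replicate 4, overlapped slightly.

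Perlecan was the most read of the 10 genes. Hspg2 (ENSMUSG00000028763.19; chr4:137196079-137298231, + strand; 97 exons) had 1257, 390 and 367 CPM in WT and 286, 362, 432 and 294 CPM in Jag2sm libraries. WT replicate 1 stood far above the rest and the other libraries of both genotypes overlapped. The log2 fold change of −0.93 ± 0.410 (SE) became −0.15 without WT replicate 1, and the difference within batches was −2.13, −0.11 and 0.23.

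WT replicate 1 thus held the highest level of 6 of the 10 genes, and also the highest summed level of 12 markers of differentiated muscle, 38050 CPM, beside 22808 and 25929 CPM in the other WT libraries and 976 to 5647 CPM in Jag2sm. Of those 12 markers, 11 were tested and all 11 were called lower in Jag2sm, where 4.84% of all tested genes were called lower. The part of differentiation in the levels of the basement membrane genes and their receptors was not tested. The 8 progenitor markers summed to 3346 to 5839 CPM in WT and 2165 to 2633 CPM in Jag2sm, and 1 of them, Des, was called lower. Des alone had 4600, 1807 and 1875 CPM in WT and 706 to 1103 CPM in Jag2sm. Of the 8 markers 4 had a positive and 4 a negative log2 fold change, with a median of 0.07, and Pax7 was above every WT library in every Jag2sm library without being called. The summed tenocyte markers were also lower in Jag2sm, at 29.6 to 75.8 CPM against 115 to 123 CPM in WT, almost all of it from Scx. The fibro-adipogenic sum overlapped between the genotypes, 63.4 to 290 CPM in WT and 233 to 396 CPM in Jag2sm, as did the mural sum, 1066 to 1935 and 849 to 2286 CPM. Most of the mural sum was Acta2, at 980 to 1902 CPM in WT and 798 to 2254 CPM in Jag2sm. Rgs5 was above WT in every Jag2sm library, at 25.3 to 645 CPM against 11.5 to 14.2 CPM, without a call. Abcc9 was called lower (log2 fold change −3.71 ± 0.721 (SE), edgeR adjusted p = 0.0139). Endothelial, immune and glial sums were at most 17.0, 5.69 and 9.90 CPM in any library.

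**Figure D3:**
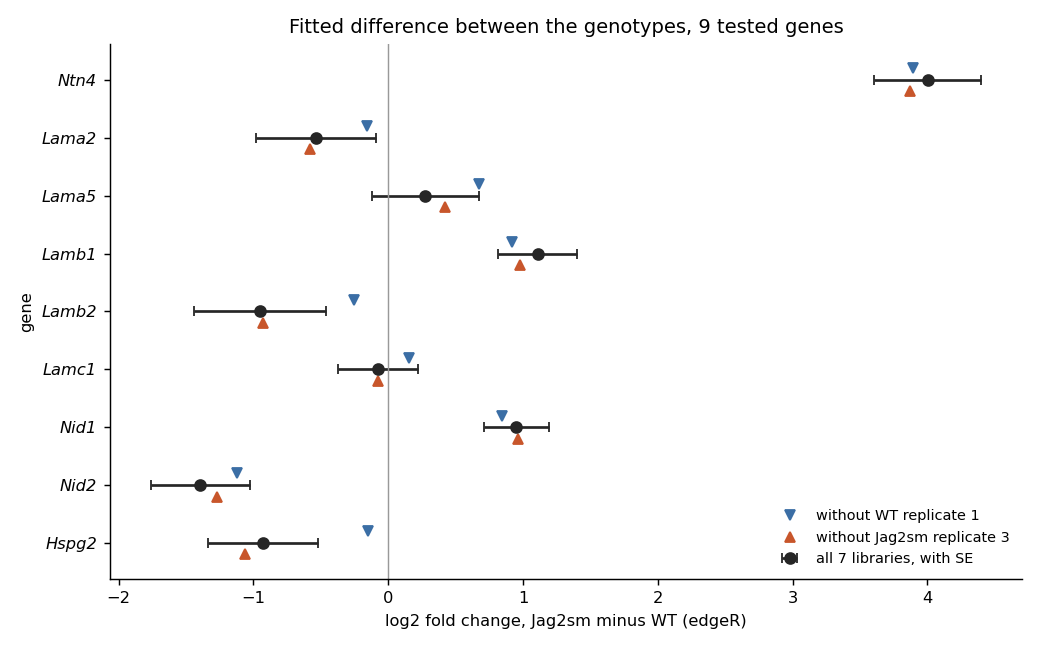
Fitted log2 fold change (Jag2sm minus WT, edgeR) of the 9 tested genes with all 7 libraries and its SE, and the same value without WT replicate 1 or without Jag2sm replicate 3. Hspg2, Lamb2 and Lama2 move toward 0 without WT replicate 1, to −0.15, −0.26 and −0.16, while Ntn4 stays between 3.87 and 4.00.

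The levels of the genes were next set against each other within libraries, per kilobase of canonical transcript. Lamb1 came first with 20.4 ± 7.47 CPM per kb in WT (SD, n = 3) and 46.1 ± 11.8 in Jag2sm (SD, n = 4). Hspg2 followed with 46.3 ± 35.0 and 23.7 ± 4.69 CPM per kb. Nid2, Nid1, Lamb2, Lama2, Lama5, Lamc1, Ntn4 and Lama4 came next. The order is that of the mean log2 level over the 7 libraries. By their medians, Nid2 had 10.5 and Lamc1 3.74 CPM per kb, and Ntn4, which was far apart in the genotypes, 9.13.

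Of the 9 pairs of neighbours in this order, 2 differed by more than the SD of their difference, and each did so with the same order in 7 of 7 libraries. Hspg2 exceeded Nid2 by 1.58 ± 0.680 (SD) on the log2 scale, and Ntn4 exceeded Lama4 by 3.48 ± 2.21 (SD). Ntn4 and Lama4 had equal counts in WT replicate 1 (0 reads each) and WT replicate 3 (2 reads each). In those libraries their order came from transcript length alone. The two-sided exact sign-flip permutation p within libraries was 0.0156 for either pair, the smallest that 7 libraries allow, and 0.0703 after adjustment over the 9 pairs, which at least 3 pairs at that smallest p would be needed to bring under 0.05. The pairs and their direction were set by the levels in these same 7 libraries, so the p-values are no independent check of the order. The pair of Ntn4 and Lama4 also rests on the high Jag2sm levels for which Ntn4 was known. Nothing is read from these p-values. In the other 7 pairs the mean difference was smaller than its SD, and the adjusted exact p was 0.562 to 0.953. Both genotypes were pooled, so a high p does not mean equal levels. Lamc1 minus Ntn4 was 2.43 in WT alone and −1.55 in Jag2sm alone. Nid2 minus Nid1 was 1.63 and −0.94, and Lamb1 minus Hspg2 −0.99 and 0.95. Of these pairs only Lamb2 and Lama2 kept their order in both genotypes, at 0.52 and 0.32. A long read stands for 1 molecule, so the order was also taken without length, and Hspg2 was then first and Lamb1 second. The adjusted sign-flip p was then 0.141 for Ntn4 and Lama4 and 0.0938 for Hspg2 and Nid2.

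The order in each genotype taken alone is given as values, without a test. In WT libraries alone it ran Hspg2, Lamb1, Nid2, Lamb2, Lama2, Nid1, Lamc1, Lama5, Ntn4 and Lama4, and in Jag2sm libraries alone Lamb1, Hspg2, Nid1, Ntn4, Nid2, Lamb2, Lama5, Lama2, Lamc1 and Lama4. Ntn4 moved from rank 9 to rank 4, with 0.456 ± 0.433 CPM per kb in WT (SD, n = 3) and 10.9 ± 1.72 in Jag2sm (SD, n = 4). Among 9477 tested genes with a length, 0.464% were below Ntn4 in WT and 53.9% in Jag2sm. For Lamb1 these shares were 70.5% and 85.4%, and for Hspg2 85.9% and 74.3%. Ntn4 passed the read filter only through the Jag2sm libraries, and genes this low in both genotypes had been removed. Its low WT share was therefore set by the filter, and nothing is read from it.

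**Figure D4:**
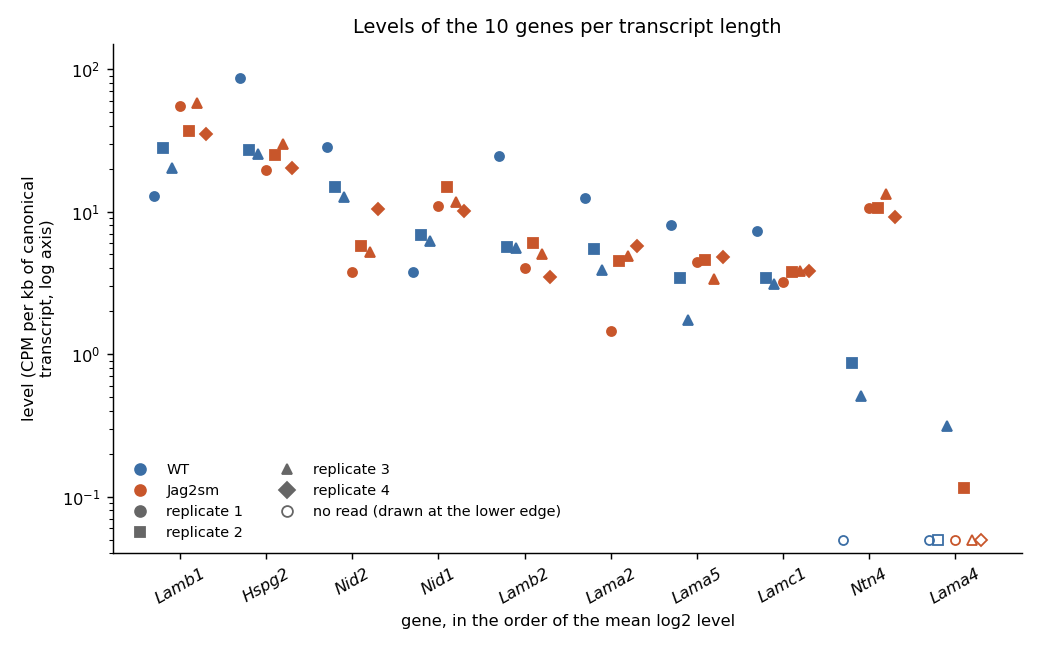
Level of the 10 genes (CPM per kilobase of canonical transcript, log axis) in each library, in the order of their mean log2 level over 7 libraries, with open symbols for libraries without a read. Ntn4 spans from no read in WT replicate 1 to 13.3 CPM per kb in Jag2sm replicate 3, and Lama4 has reads in 2 libraries.

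By Pearson's r of log2 CPM over the 7 libraries, the 5 genes most like Ntn4 among 9480 were Nopchap1 (0.986), Rem1 (0.981), Rbm43 (0.980), Rangap1 (0.980) and Osbpl6 (0.979). Of the members, Nid1 (0.949) and Lamb1 (0.928) were most like it, and 46 and 92 genes had an r at least as high. The r of Nid2 with Ntn4 was −0.90. When deviations from the genotype means were used instead, r was 0.84 for Nid1, 0.87 for Lamb1, −0.67 for Nid2, 0.90 for Nopchap1 and 0.93 for Osbpl6. Values this high were common. By this r Nopchap1 ranked 662 and Rangap1 (0.81) ranked 1659 among the 9480 genes, and Nid1 and Lamb1 lay between these 2 values. The points share genotype, depth and sequencing run.

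The proteins that laminins bind were tested as a list of 11 genes, all of them measured. None was called higher and 2 were called lower, Dag1 and Bcam, where 1.42% of all tested genes were called higher and 4.84% lower. Dag1 encodes dystroglycan, the laminin receptor of the dystrophin complex, and had 594, 224 and 176 CPM in WT and 105, 73.9, 74.4 and 111 CPM in Jag2sm libraries. It fell without overlap of the genotypes (log2 fold change −1.80 ± 0.387 (SE), edgeR adjusted p = 0.0213). Bcam, a receptor of the laminin α5 chain, had 248, 60.1 and 63.5 CPM in WT and 11.3, 20.7, 5.42 and 31.0 CPM in Jag2sm libraries. It fell as well (−2.61 ± 0.615 (SE), edgeR adjusted p = 0.0311). Without WT replicate 1 the log2 fold change of Dag1 was −1.17, still called, and that of Bcam −1.88, with an edgeR adjusted p of 0.0597. Bcam also lost its call without Jag2sm replicate 1 (edgeR adjusted p = 0.0788), and without Jag2sm replicate 2 the edgeR adjusted p of both genes was 0.0818.

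The integrin chains that form laminin receptors gave no call. Itga7, whose product was used to sort the cells, had 156, 47.2 and 45.5 CPM in WT and 29.7, 42.2, 51.7 and 48.1 CPM in Jag2sm libraries (−0.63 ± 0.403 (SE), edgeR adjusted p = 0.428). Itga6, the other α chain of the pair, had a log2 fold change of −0.21 ± 0.271 (SE), edgeR adjusted p = 0.728. Itgb1, their β partner, was below WT in every Jag2sm library, at 530, 452 and 421 CPM in WT and 318, 267, 325 and 298 CPM in Jag2sm, with −0.63 ± 0.204 (SE) and an edgeR adjusted p of 0.105. DESeq2 called Itgb1 at an adjusted p of 0.0249. Among the coreceptor syndecans, Sdc2 was not called (1.45 ± 0.449 (SE), edgeR adjusted p = 0.0891) but was with the replicate number as a block (1.56, edgeR adjusted p = 0.0383). The median of the 11 genes was −0.19.

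The enzymes that put the laminin-binding sugar on dystroglycan, whose loss causes other muscular dystrophies, made a list of 16 genes with 10 tested. edgeR called 0 of them, 0 had an unadjusted p under 0.05 and DESeq2 called 0. Their log2 fold changes ran from −0.30 to 0.42 with a median of −0.00083.

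Of 23 other basement membrane components, 12 were tested, 0 called higher and 2 lower, where 4.84% of all tested genes were called lower. Fras1 and Frem2 belong to the complex that fastens epithelia to their basement membrane. Fras1 had 23.1, 11.0 and 12.3 CPM in WT and 1.41, 3.46, 1.48 and 4.89 CPM in Jag2sm libraries (−2.17 ± 0.515 (SE), edgeR adjusted p = 0.0319). Frem2 had 104, 14.2 and 12.3 CPM in WT and 1.41, 2.76, 0.493 and 0.815 CPM in Jag2sm libraries (−4.32 ± 0.927 (SE), edgeR adjusted p = 0.0210). Both fell without overlap of the genotypes, from 34 and 53 WT reads to 15 and 7 in Jag2sm. Fras1 lost its call when any of 6 of the 7 libraries was left out, with an edgeR adjusted p of up to 0.125, and Frem2 without Jag2sm replicate 1 (0.0523). The log2 fold change of Frem2 was −3.27 without WT replicate 1 and −5.02 without WT replicate 3. DESeq2 also called Col18a1, the chain of collagen XVIII, higher (0.97, DESeq2 adjusted p = 0.0158), where edgeR gave 0.94 ± 0.288 (SE) and an adjusted p of 0.0853.

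The collagen IV chains that nidogens tie to laminin gave no call. Col4a1 had 28.8, 149 and 101 CPM in WT and 63.6, 103, 138 and 91.3 CPM in Jag2sm libraries (−0.04 ± 0.377 (SE), edgeR adjusted p = 0.979), and its sign changed between settings. Col4a2, which shares 311 exonic bases with Col4a1 on the other strand, had −0.51 ± 0.343 (SE), edgeR adjusted p = 0.460. Agrn, the heparan sulfate proteoglycan of the neuromuscular junction, ranged from 22.0 to 24.7 CPM in WT and from 18.2 to 116 CPM in Jag2sm libraries (1.24 ± 0.587 (SE), edgeR adjusted p = 0.278). The median of the 12 tested genes was −0.13.

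Of the other laminin and netrin genes, 10 in all, Lamb3 and Ntn1 had enough reads. edgeR called 0, 0 had an unadjusted p under 0.05 and DESeq2 called 0. Ntn1, the founding netrin, stood at 14.2 to 24.7 CPM in WT and 9.78 to 38.4 CPM in Jag2sm libraries. Lama1, Lama3, Ntn3 and Ntn5, which were too low for the test, had between 1 and 10 reads in all libraries together.

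Netrin receptors made a list of 8 genes with 3 tested. edgeR and DESeq2 called 0, and Mcam had an unadjusted p under 0.05 (log2 fold change −1.16 ± 0.482 (SE), edgeR adjusted p = 0.207). Neo1, which encodes neogenin, had 57.6, 45.9 and 51.2 CPM in WT and 33.9, 40.1, 48.3 and 41.6 CPM in Jag2sm libraries (−0.27 ± 0.218 (SE), edgeR adjusted p = 0.539). Unc5b had −0.20 ± 0.317 (SE), edgeR adjusted p = 0.783. Dcc and Unc5d had no read in any library.

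Among 12 genes of basement membrane turnover, 8 were tested, 0 called higher and 1 lower, where 4.84% of all tested genes were called lower. Adamts5, a protease of proteoglycans such as versican and aggrecan, had 23.1, 32.3 and 22.8 CPM in WT and 5.66, 6.91, 7.88 and 4.89 CPM in Jag2sm libraries. It was below WT in all 4 and fell, with a log2 fold change of −2.03 ± 0.316 (SE), edgeR adjusted p = 0.00605, and 0.0561 without WT replicate 2. The median of the 8 tested genes was 0.11.

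**Figure D5:**
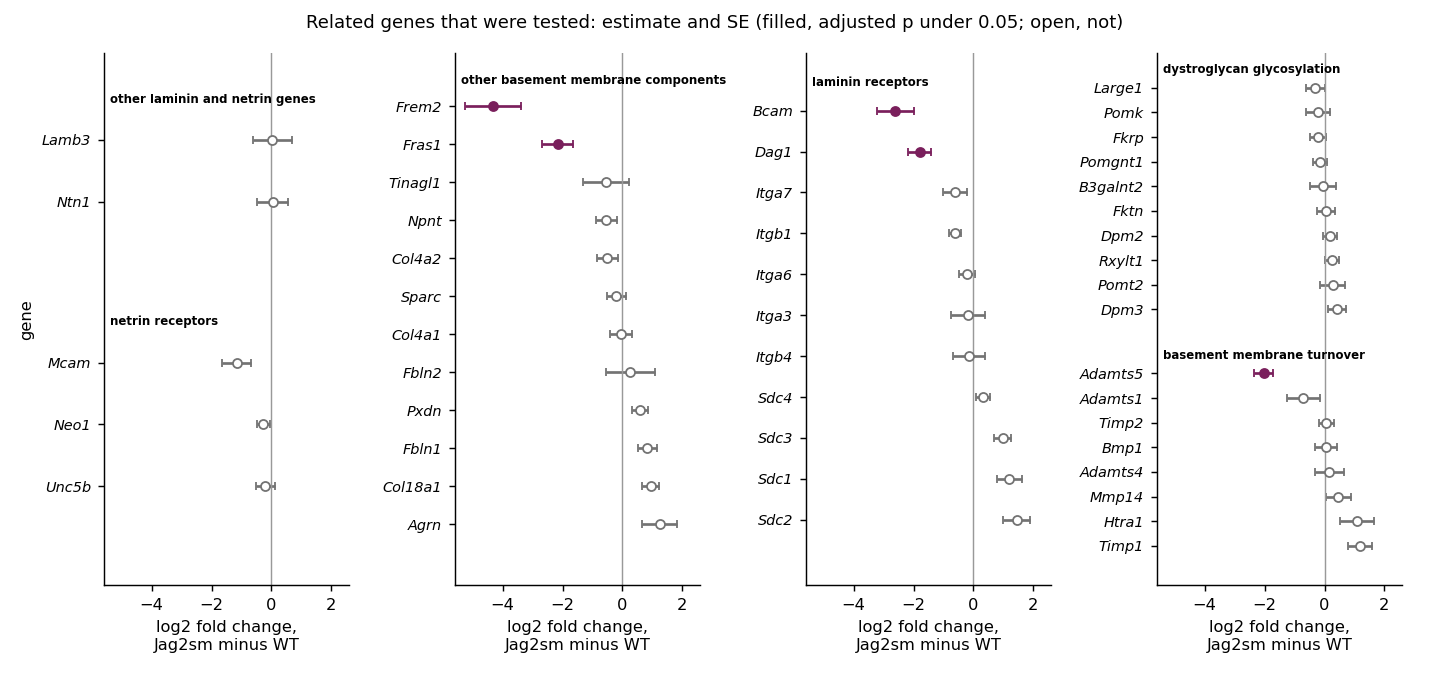
Log2 fold change (Jag2sm minus WT) with SE of the tested genes in 6 lists of related genes, filled where the edgeR adjusted p was under 0.05 and open where not. The 5 filled genes, Dag1, Bcam, Fras1, Frem2 and Adamts5, all lie below 0, the side of 77.3% of the calls over all tested genes.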

How the data were processed

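RNA of 7 MuSC libraries, 3 WT and 4 Jag2sm, was read as direct cDNA on PromethION flow cells. The authors called bases with dorado, aligned reads to GRCm39 with minimap2 (2.17 in the submitters' processing notes), counted them per gene with htseq and deposited the raw counts. The annotation, the htseq version and the strand setting were not given in the sources used here. Each file also holds 5 summary rows, left out of library sizes and tests. The authors' comparison table (mean counts, fold changes, p-values) was not used.

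Counts were scaled by TMM and filtered by filterByExpr (minimum count 10, minimum total 15), and the genotypes were compared with edgeR 4.0.16 (glmQLFit, glmQLFTest, no covariates) in R 4.3.3, with Benjamini-Hochberg adjustment over 9489 genes and a threshold of 0.05. CPM divides counts by the scaled library size, and a prior count of 2 was used on the log2 scale. Intervals are exact at 95% (SciPy 1.17.1), a count of 0 allows 3 counts, and both cover counting error only. Of the identifiers, 56017 were found in GENCODE M39, which gave positions, overlaps and lengths. The fits were first tested on simulated data.

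The members and lists were chosen with earlier results of these data known. Named are the members, the called genes of each list, Dag1, Itga6, Itga7, Itgb1, Col4a1, Col4a2, Agrn, Bcam, Neo1 and Unc5b whether called or not, the 5 genes most like Ntn4, and Jag2. Genes outside this rule (Sdc2, Mcam, Col18a1, Lamb3, Ntn1, the laminins and netrins of few reads, the genes without reads, and the markers) were named after their values were seen. A gene of the lists is not reported here.

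The labels give a batch number that equals the replicate number, so it pairs replicates 1, 2 and 3 of the genotypes. Deviations from the genotype means correlated at 0.0740, 0.0144 and 0.0539 across genes between libraries of the same number. The block fit has 2 residual degrees of freedom, and Jag2sm replicate 4, alone in its batch, adds nothing to it. Alternatives were DESeq2 1.42.0 and its size factors, library size alone, all genes unfiltered, the replicate block, other lengths and leaving out each library.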

Additional observations from a re-analysis of the deposited data

Results flagged for a closer look

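In groups of 4 libraries, 36 sets of values were checked for a library far from the others by Dixon's criterion, and chance flags about 1 in 20 such sets. The level of Lama4 in Jag2sm replicate 2 was 0.691 CPM, a single read, with no read in the other 3. Lamc1 was lowest in Jag2sm replicate 1, at 25.5 CPM, where the other 3 had 29.7 to 30.6 CPM. The summed endothelial markers were highest in Jag2sm replicate 1, at 17.0 CPM, where the other 3 had 7.88 to 8.98 CPM.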

How the results depend on the processing

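The log2 fold change of Ntn4 ran from 3.80 to 4.60 over the 12 alternatives, a description, since the gene was chosen for it, and every alternative kept the sign of Lama2, Lamb1, Lamb2, Nid1, Nid2 and Hspg2. Of the members, 3 were called in the comparison as reported, 4 without a filter on low counts and by DESeq2, 2 with the replicate block, which changed the call of Nid1 and, among related genes, Sdc2, and no other call of a member or listed gene, and 1 to 3 when a library was left out. The single member left was Ntn4 in each of the 6 cases. Nid1 and Nid2 were called again without Jag2sm replicate 4. Lamb1 was called with the size factors of DESeq2, library size alone, no filter and DESeq2, but in no fit that left out a library. Nid2 was not called with the size factors of DESeq2 or library size alone, so the 3 members called there were Ntn4, Nid1 and Lamb1. The median over the 9 tested members was −0.31 to 0.16 across the alternatives, and library size alone raised the median over all genes from 0.05 to 0.21.

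Over the whole table, 594 genes were called, 135 higher and 459 lower (77.3% lower). No filter on low counts called 1248, with 468 higher and 780 lower (62.5%), library size alone 241 higher (61.4% of its calls lower) and DESeq2 206 higher. Leaving out 1 library gave 251 (without Jag2sm replicate 2) to 616 calls, 20 (without WT replicate 3) to 220 (without Jag2sm replicate 3) higher, among them 83 without Jag2sm replicate 1, 33 without WT replicate 2 and 30 without Jag2sm replicate 2, and 221 to 466 lower, and 64.3% to 94.1% of the calls were lower. Without WT replicate 2, 343 genes were called, and without WT replicate 3, 341.

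Other basement membrane components had 4 calls without a filter (Agrn and Smoc2 added), 3 by DESeq2 (Col18a1 added) and 0 to 2 with a library left out. Laminin receptors had 5 without a filter (Sdc1, Sdc2 and Sdc3 added), 4 by DESeq2 (Itgb1 and Sdc2 added) and 0 to 3 with a library left out. Basement membrane turnover had 2 without a filter and by DESeq2 (Timp1 added) and 0 to 1 with a library left out. Netrin receptors and dystroglycan glycosylation had 0 throughout. Col4a1 was positive with library size alone (0.12), by DESeq2 (0.045) and with the block (0.18), and spanned −0.33 to 0.43 with a library left out, Col4a2 −0.80 to 0.19 and Unc5b −0.40 to 0.071.

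With all exonic bases as the length, Lamb1 minus Hspg2 became −0.63, Lama2 minus Lama5 −0.64 and Lamc1 minus Ntn4 −0.31. The adjusted sign-flip p was then under 0.05 for 3 neighbouring pairs, from which nothing is read either. Among these pairs were Ntn4 and Lama4, whose order in WT replicates 1 and 3 came from length alone. Without division by length, Lamb1 minus Hspg2 became −1.20, Nid2 minus Nid1 −0.16, Lamb2 minus Lama2 −0.38 and Lama2 minus Lama5 −0.0017. With a library left out, Lamb1 minus Hspg2 ran from −0.11 to 0.59, Nid2 minus Nid1 from −0.28 to 0.43, Lama5 minus Lamc1 from −0.060 to 0.15 and Lamc1 minus Ntn4 from −0.49 to 0.48. The causes were not tested. The genes most like Ntn4 kept 3 of 5 names with a prior count of 0.5 and 0 of 5 when deviations from the genotype means were used. Depth limits the lowest genes, since 3 counts make 17.3 CPM in WT replicate 1 and 1.48 to 4.24 CPM elsewhere.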
